A study of Mus musculus with 3 samples.

Results

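CAP-D3 sites that lay at closely similar positions in Rb+/+ and RbΔL/ΔL fibroblasts were chosen by peak coordinates. A Rb+/+ peak and a RbΔL/ΔL peak formed a matched site when the length they shared was at least 50% of the width of each. Peaks on chromosome 2 from 98 to 99 Mb, chromosome 9 from 2.9 to 3.1 Mb and chromosome 17 from 39.9 to 40.1 Mb were left out. The rule gave 797 matched sites, each made of 1 peak from either list. They made up 9.74% of the 8181 Rb+/+ peaks and 12.4% of the 6422 RbΔL/ΔL peaks outside those regions, or 797 of the 8195 and 6437 peaks listed in all. Start and end positions, and with them widths and edge distances, were used by the rule, so those values are descriptions.

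The cells were primary mouse embryonic fibroblasts, proliferating at passage 4. One chromatin immunoprecipitation (ChIP) library with a CAP-D3 antibody came from wild-type (Rb+/+) cells and 1 from cells with both copies of the Rb gene carrying the ΔL allele. The third sample was input DNA, whose label names no genotype and whose values were not analysed here. The sources used here do not give strain, sex or the number of embryos behind each library. The read depth is unknown and each genotype has 1 library, so no test between genotypes was possible. Intervals in brackets are 95% intervals, exact binomial for shares, exact Poisson for densities and based on order statistics for medians. They cover counting error only, since neighbouring peaks and reads are not independent.

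CAP-D3 is a subunit of condensin II, which stays in the nucleus through the cell cycle and helps to fold and compact chromosomes before division. The retinoblastoma protein binds many chromatin proteins through a pocket that recognises the LXCXE motif. The ΔL allele changes that pocket and weakens such contacts, including the one with condensin II, while leaving the binding of E2F factors largely in place. A site listed at the same place in both genotypes is a place where CAP-D3 antibody enrichment was detected with either form of the protein. All positions are on mouse build mm9. No gene annotation or sequence of that build was used here, so whether a site lies in a gene, an exon or an intron was not determined, and no sequence is printed.

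The matched sites were spread over 20 chromosomes, the autosomes and X, at 0.302 sites per Mb of chromosome length. Chromosome 11 was the densest, with 66 sites or 0.542 per Mb (0.419 to 0.689). Chromosome 5 had 67 sites or 0.439 per Mb (0.340 to 0.558), and chromosome 7 had 66 sites or 0.433 per Mb (0.335 to 0.551). The intervals of these chromosomes lay above the density over all chromosomes. The X chromosome was the sparsest, with 14 sites or 0.0840 per Mb (0.0459 to 0.141), which is 0.265 times the density on the autosomes. Among autosomes, chromosome 14 was lowest with 25 sites or 0.200 per Mb (0.129 to 0.295). The sex of the embryos, and so the number of X copies per cell, is not stated.

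**Figure D1:**
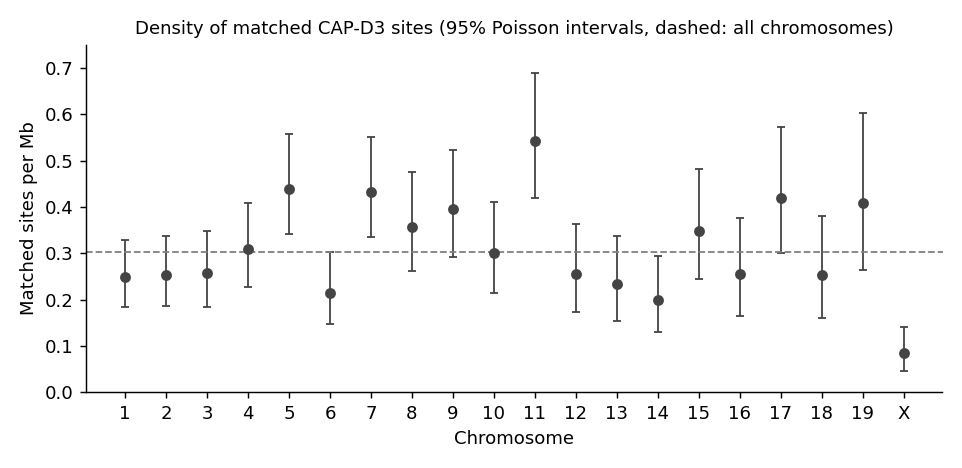
Matched CAP-D3 sites per Mb of each mm9 chromosome, with 95% Poisson intervals (points and bars); the dashed line is the density over all chromosomes, 0.302 per Mb. Chromosome 11 stands highest at 0.542 per Mb and X lowest at 0.0840 per Mb. Peaks without overlap are not drawn.

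Peaks found in 1 list alone gave the background for these positions. There were 7128 Rb+/+ and 5367 RbΔL/ΔL peaks without any overlap with the other list outside the regions left out. X held 1.76% of the matched sites (0.964 to 2.93), 2.88% of the Rb+/+ peaks without overlap and 2.57% of the RbΔL/ΔL peaks without overlap. The differences, -1.12 percentage points (Newcombe interval -1.94 to 0.106) and -0.815 points (-1.66 to 0.419), were within counting error. Chromosome 11 held 8.28% of the matched sites, 7.42% of the Rb+/+ and 6.48% of the RbΔL/ΔL peaks without overlap. Its differences, 0.860 points (-0.972 to 3.06) and 1.80 points (-0.0556 to 4.01), were also within counting error. Of 20 chromosomes compared with each list, with no adjustment for their number, the interval of the difference lay above 0 for chromosome 5 against Rb+/+ (2.16 points, 0.335 to 4.36). It lay above 0 for chromosomes 7 and 17 against RbΔL/ΔL (2.36 points, 0.513 to 4.56, and 1.59 points, 0.179 to 3.39). It lay below 0 for chromosome 2 against Rb+/+ (-1.94 points, -3.50 to -0.00886). None of these was beyond counting error against both lists. The share of Rb+/+ peaks that were matched ranged from 7.26% on chromosome 6 to 12.6% on chromosome 17 among autosomes, and was 6.33% (3.51 to 10.4) on X.

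Mouse chromosomes carry their centromere at the low-coordinate end, and the first 3 Mb of the assembly are a gap. From there to the distal end, with each chromosome divided into 5 equal parts, the successive shares of matched sites were 15.9%, 15.7%, 19.3%, 22.7% and 26.3%. Rb+/+ peaks without overlap gave 16.3%, 19.0%, 19.5%, 21.7% and 23.5%, also with the most in the last part. RbΔL/ΔL peaks without overlap gave 17.3%, 18.1%, 19.1%, 21.8% and 23.6%. In the 5 Mb next to the centromeric end lay 39 matched sites (4.89%, 3.50 to 6.63), against 3.52% of the Rb+/+ and 3.82% of the RbΔL/ΔL peaks without overlap. The difference from Rb+/+ was 1.37 points (0.00148 to 3.14), and over 10 Mb it was 0.406 points (-1.25 to 2.44). The difference from RbΔL/ΔL was 1.07 points (-0.330 to 2.87). The region left out on chromosome 9 reaches into this zone. With the 3 regions kept, the share here was 5.80% of 810 sites (4.29 to 7.64). In the last 5 Mb lay 43 matched sites (5.40%, 3.93 to 7.20), against 4.88% and 4.77% of the peaks without overlap, which was within counting error of both. These zones hold 3.88% of the sequence each.

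Matched sites filled most of the top ranks of both lists. The rule did not use the score directly. A match did need a listed peak in both lists, and width, which the rule used, went with score. The part these have in the score differences below was not tested. The score, which the authors' peak caller gave each peak, ranks peaks within a list, and none was below 50 in either. Matched Rb+/+ peaks had a median score of 159.77, and those without overlap 60.73. For RbΔL/ΔL these medians were 119.44 and 63.7. Peaks that overlapped the other list without meeting the rule lay between, with medians of 118 in Rb+/+ (103 to 137) and 95.25 in RbΔL/ΔL (91.24 to 106). In Rb+/+, 69.1% of matched peaks, 57.4% of the other overlapping peaks and 4.66% of the peaks without overlap had a score of at least 100. The RbΔL/ΔL shares were 58.3%, 46.5% and 4.58%. Matched peaks exceeded the other overlapping peaks by 11.7 points (4.95 to 18.6) in Rb+/+ and 11.8 points (4.83 to 18.7) in RbΔL/ΔL. Most of the distance to the peaks without overlap was thus shared by all overlapping peaks. Ranks were taken over all listed peaks, also those in the regions left out, which held 13 further pairs that shared at least 50%. Matched sites filled 77 of the first 100 and 370 of the first 500 ranks in Rb+/+. In RbΔL/ΔL they filled 74 of the first 100 and 374 of the first 500. A total of 48 sites were in the first 100 of both lists and 299 in the first 500 of both. Both scores were at least 100 at 417 sites and both were below 100 at 198 sites. At 134 sites only the Rb+/+ score reached 100, and at 48 only the RbΔL/ΔL score did. At 17 sites both scores were below 60. Across the 797 sites, Spearman's rho of the scores was 0.76, a description over peaks that are not independent.

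The highest-scoring Rb+/+ peak of a matched site, 691 bp wide with a score of 1768.58, was on chromosome 5 at 124356950 to 124357640. Its RbΔL/ΔL partner, at 124357054 to 124357417, was 364 bp wide, lay wholly inside it and ranked 10 in its list with a score of 916.18. On chromosome 11, the Rb+/+ peak at 98063561 to 98064553 (score 1767.63, rank 3) held the RbΔL/ΔL peak at 98063650 to 98064364 (score 1022.94, rank 7). On chromosome 2, the Rb+/+ peak at 156005551 to 156006529 (score 1382.96, rank 10) held the RbΔL/ΔL peak at 156005808 to 156006303 (score 1364.53, rank 4), which had the highest RbΔL/ΔL score of all matched sites. In these 3 sites the RbΔL/ΔL peak was nested within the Rb+/+ peak.

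Other top sites were staggered. On chromosome 4, the Rb+/+ peak ran from 126354450 to 126355125 (score 1389.57, rank 9) and the RbΔL/ΔL peak from 126354691 to 126355211 (score 1194.77, rank 5). On chromosome 3, the Rb+/+ peak ran from 105761822 to 105762536 (score 1602.84, rank 6) and the RbΔL/ΔL peak from 105762047 to 105762609 (score 873.78, rank 12). On chromosome 17, the Rb+/+ peak ran from 28828014 to 28828493 (score 1431.44, rank 7) and the RbΔL/ΔL peak, here the wider, from 28828050 to 28828641 (score 727.57, rank 19). At these 3 sites the RbΔL/ΔL peak both started and ended at higher coordinates.

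Among the 5 highest RbΔL/ΔL scores were also chromosome 5 at 136254236 to 136254751 (score 979.13, rank 8) and chromosome 9 at 35112711 to 35113240 (score 921.9, rank 9). The first lay inside a Rb+/+ peak at 136253894 to 136254778 (score 1245.62, rank 12). The second lay inside a Rb+/+ peak at 35112676 to 35113245 that ranked 50 with a score of 668.61, and the edges there differed by 35 and 5 bp. Strong sites therefore included both widely different and nearly equal edges.

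Matched peaks were mostly somewhat wider in Rb+/+ than in RbΔL/ΔL. The median width was 504 bp in Rb+/+ (489 to 511, quartiles 409 and 610, range 227 to 1226) and 448 bp in RbΔL/ΔL (439 to 460, quartiles 356 and 542, range 208 to 1032). The Rb+/+ peak was wider at 533 sites (66.9%, 63.5 to 70.1), the RbΔL/ΔL peak at 263, and at 1 site both were equally wide. Over all 1061 overlapping pairs outside the regions left out, whatever the shared length, the Rb+/+ peak was wider in 68.9%. That background includes the matched sites. In the 264 overlapping pairs that missed the 50% limit, the Rb+/+ peak was wider in 198 (75%, 69.3 to 80.1), a larger share than at the matched sites. Since the limit bears on widths, these shares are a description of the sorted pairs. The median difference in width, Rb+/+ minus RbΔL/ΔL, was 60 bp (50 to 75), and its median by chromosome was above 0 on 20 of 20 chromosomes, from 24.5 to 104 bp. Peaks without overlap had median widths of 422 bp (Rb+/+) and 410 bp (RbΔL/ΔL). Peaks that overlapped the other list without meeting the rule had a median of 577.5 bp (531 to 628) in Rb+/+, wider than matched peaks. In RbΔL/ΔL their median was 341.5 bp (329 to 371), narrower than matched peaks. Whether the difference in width exceeds the spread between libraries of 1 genotype is not known.

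**Figure D2:**
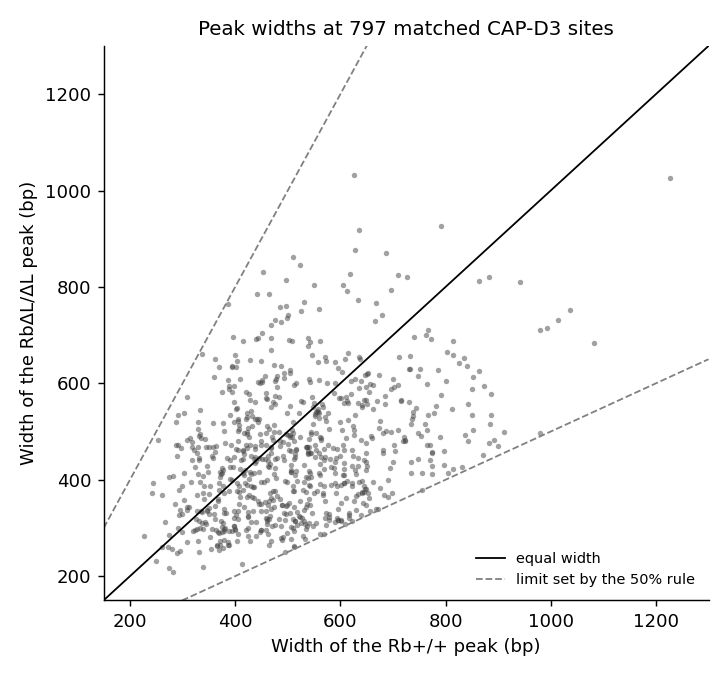
Width of the Rb+/+ peak (x axis, bp) against width of the RbΔL/ΔL peak (y axis, bp), 1 point per matched site. Dashed lines show the ratio the 50% rule allows and the solid line equal widths; 533 of 797 points lie below the solid line.

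By the mean of both widths, the widest matched site lay on chromosome 15 at 81702187 to 81703412 in Rb+/+ (1226 bp) and 81702177 to 81703202 in RbΔL/ΔL (1026 bp). Next came chromosome 12 at 4082042 to 4083078 (1037 bp) and 4082263 to 4083015 (753 bp), and chromosome 13 at 63532152 to 63533233 (1082 bp) and 63532370 to 63533052 (683 bp). Their ranks ran from 252 to 522 in Rb+/+ and from 360 to 424 in RbΔL/ΔL. The narrowest were chromosome 3 at 97817443 to 97817691 (249 bp) and 97817426 to 97817656 (231 bp), chromosome 15 at 93228611 to 93228892 (282 bp) and 93228688 to 93228895 (208 bp), and chromosome 7 at 38886617 to 38886891 (275 bp) and 38886663 to 38886879 (217 bp). Their scores lay between 75.04 and 158.42. Only 4 Rb+/+ and 2 RbΔL/ΔL peaks of matched sites were wider than 1 kb.

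Matched peaks of higher score tended to be wider. Spearman's rho between width and score across the 797 sites was 0.36 in Rb+/+ and 0.20 in RbΔL/ΔL. With the sites divided into 4 parts of equal size by Rb+/+ score, the median Rb+/+ width was 444.5, 497, 539 and 578 bp from the lowest to the highest. The median RbΔL/ΔL width was 422.5, 450, 449 and 489 bp in the same parts, and the median difference in width was 17 bp (6 to 42), 55 bp (33 to 83), 93 bp (68 to 121) and 101 bp (62 to 132). Divided by RbΔL/ΔL score instead, the median difference was 51.5 bp (34 to 69), 71 bp (34 to 94), 41 bp (13 to 72) and 100 bp (65 to 126). By Rb+/+ score the difference was thus larger in the highest part than in the lowest, while the intervals of neighbouring parts overlapped. By RbΔL/ΔL score the medians did not rise in order, and the intervals of the lowest and highest parts overlapped. The Rb+/+ score itself went with Rb+/+ width, and the part this has in the order by Rb+/+ score was not tested.

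At like scores, the intervals of the median widths of matched peaks and peaks without overlap lay apart in only some bands. For Rb+/+ this was the band from 60 to 80, and for RbΔL/ΔL the bands from 80 to 100 and from 100 to 200. The widths are descriptions, since width entered the rule. Between scores of 100 and 200, the 246 matched RbΔL/ΔL peaks had a median width of 455 bp (428 to 473) and the 245 without overlap 248 bp (235 to 354, quartiles 202 and 490). Of these, 11.4% and 53.1% were narrower than 300 bp. The 85 RbΔL/ΔL peaks of this band that overlapped the other list without meeting the rule had a median of 306 bp (283 to 341) with 44.7% under 300 bp, so narrow peaks were also frequent among peaks with a partner. Between 80 and 100 the medians of matched peaks and peaks without overlap were 442 bp (416 to 466) and 301 bp (290 to 312), and 13.8% and 49.6% were narrower than 300 bp. For the other overlapping peaks there the median was 313 bp (276 to 357), and 47.8% were under 300 bp. Between 60 and 80 the RbΔL/ΔL medians were 400.5 bp (377 to 417) when matched and 381 bp (379 to 385) without overlap, with intervals that overlapped. For Rb+/+ this band had the largest gap, with 455.5 bp (430 to 468) when matched and 372 bp (368 to 379) without overlap. Between 80 and 100 the Rb+/+ medians were 492.5 bp (425 to 523) and 422.5 bp (413 to 464), with intervals that overlapped. In Rb+/+ the 222 matched peaks between 100 and 200 had a median of 505.5 bp (479 to 535) and the 316 without overlap 491.5 bp (464 to 523), and 6.76% and 19.3% were narrower than 300 bp. The 74 other overlapping Rb+/+ peaks of this band were wider than both, with a median of 648.5 bp (619 to 700) and 5.41% under 300 bp. Between 60 and 80 the other overlapping Rb+/+ peaks had a median of 430 bp (345 to 497), and between 80 and 100 of 516 bp (495 to 635). Below a score of 60 the medians were close, at 434 and 429 bp for Rb+/+, and 461 and 445 bp for RbΔL/ΔL. A narrow peak can less easily reach 50% of a wider partner, and the part this has in the differences was not tested.

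**Figure D3:**
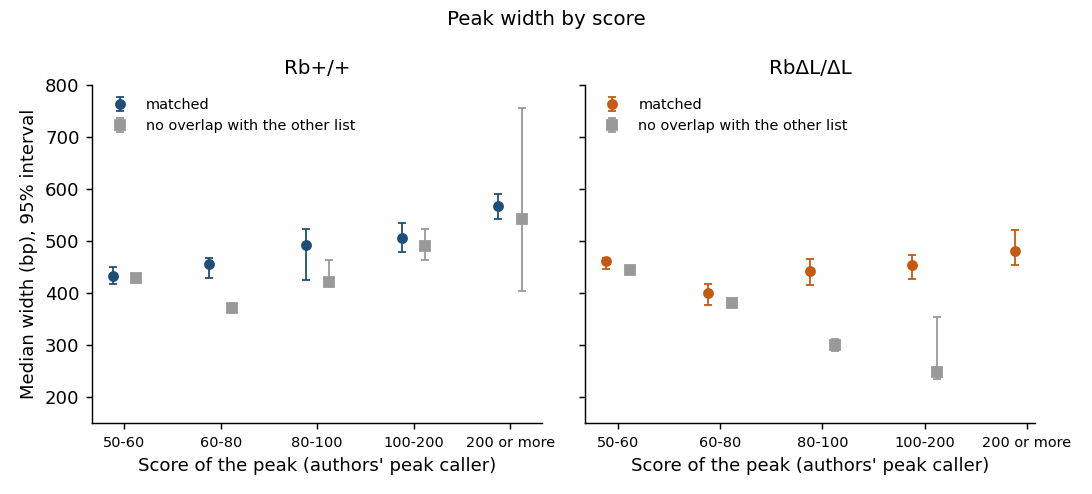
Median peak width (y axis, bp, with 95% intervals) by score band (x axis) for matched peaks and for peaks without overlap, in Rb+/+ (left) and RbΔL/ΔL (right). In RbΔL/ΔL between scores of 100 and 200 the medians are 455 and 248 bp; the single RbΔL/ΔL peak without overlap at a score of 200 or more is not drawn.

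Edges agreed to within about a peak's flank rather than to the base. The more distant of a site's edges differed by a median of 145 bp (135 to 151, quartiles 87 and 204) and the nearer by 43 bp (39 to 48). Both edges were within 50 bp at 79 sites (9.91%, 7.93 to 12.2), within 100 bp at 243 sites (30.5%) and within 200 bp at 590 sites (74.0%). Both were within 10 bp at 2 sites. Starts were identical at 3 sites and ends at 3. The shared stretch had a median length of 371 bp (360 to 379), or 69.0% of the wider peak. It reached 80% of the wider peak at 181 sites (22.7%, 19.8 to 25.8) and 90% at 47 sites (5.90%, 4.36 to 7.77). Sites that met the rule thus covered a wide range of edge distances.

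The site with the closest edges lay on chromosome 8, at 28134094 to 28134486 in Rb+/+ and 28134089 to 28134488 in RbΔL/ΔL, with starts 5 bp and ends 2 bp apart. Its ranks were 176 and 31. On chromosome 6, peaks at 38501119 to 38501496 and 38501119 to 38501490 began at the same base and ended 6 bp apart. Also on chromosome 6, peaks at 42299781 to 42300248 and 42299769 to 42300236 had the same width of 468 bp and were offset by 12 bp. The last of these had low scores, 53.61 and 56.96, and ranked 7245 and 5402. On chromosome 11, peaks at 3166186 to 3166686 and 3166199 to 3166673 differed by 13 bp at either edge, and peaks at 54336099 to 54336645 and 54336090 to 54336660 by 9 and 15 bp. Close edges were thus found at high and at low scores, and across all sites Spearman's rho of the more distant edge was 0.09 with the Rb+/+ score and 0.04 with the RbΔL/ΔL score.

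On average the RbΔL/ΔL peak began later and ended earlier than the Rb+/+ peak by similar amounts. The start, RbΔL/ΔL minus Rb+/+, had a median of 28 bp (19 to 42), and it was at the higher coordinate in RbΔL/ΔL at 478 sites (59.97%, 56.5 to 63.4). The end had a median of -26 bp (-36 to -18), and it was at the lower coordinate in RbΔL/ΔL at 473 sites (59.3%, 55.8 to 62.8). Medians by chromosome ran from -29 to 91 bp for the start, above 0 on 18 of 20 chromosomes, and from -60 to -1 bp for the end, below 0 on 20 of 20. The centre showed no lean to either side, with a median of 3.5 bp (-6.5 to 13) and 51.1% of sites (47.5 to 54.6) centred higher in RbΔL/ΔL. The size of the centre's offset, whatever its direction, had a median of 68.5 bp (61.5 to 72).

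The peaks of a site were arranged in 4 ways. The RbΔL/ΔL peak lay within the Rb+/+ peak at 259 sites (32.5%, 29.3 to 35.9), and the Rb+/+ peak within the RbΔL/ΔL peak at 100 (12.5%, 10.3 to 15.0). The RbΔL/ΔL peak was displaced to higher coordinates at 221 sites (27.7%) and to lower coordinates at 217 (27.2%), which is even between the sides. Nesting of the RbΔL/ΔL peak was less frequent at sites with low Rb+/+ scores. Over the 4 parts by Rb+/+ score it was found at 19% (13.8 to 25.1), 31.7%, 38.2% and 41.2% (34.3 to 48.4), from the weakest to the strongest. By RbΔL/ΔL score the shares were 27% (20.98 to 33.7), 30.7%, 32.7% and 39.7% (32.8 to 46.9). The intervals of the lowest and highest of these parts overlapped. The opposite nesting stayed between 9% and 16.1% in all of these parts. The Rb+/+ peaks were also wider at the higher scores, as given above.

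**Figure D4:**
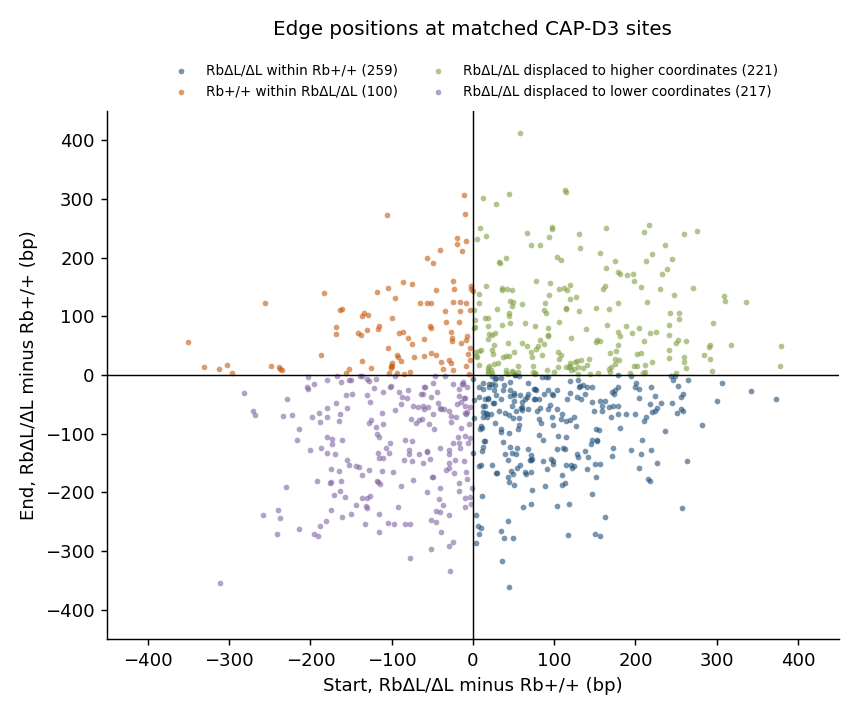
Difference of the start (x axis) and of the end (y axis) between RbΔL/ΔL and Rb+/+, RbΔL/ΔL minus Rb+/+ in bp, 1 point per matched site, coloured by arrangement. The lower right holds the 259 sites with the RbΔL/ΔL peak inside the Rb+/+ peak and the upper left the 100 sites with the opposite nesting.

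Pairs just inside and just outside the 50% limit differed little in the percentage they shared, and no other likeness was measured. The least shared pair inside lay on chromosome 18 at 80666482 to 80666967 in Rb+/+ and 80666245 to 80666724 in RbΔL/ΔL, sharing 243 of 486 bp (50%). Next were chromosome 5 at 111082096 to 111082850 and 111082322 to 111082700 (50.2%), and chromosome 7 at 19881177 to 19881461 and 19881003 to 19881352 (50.3%). Just outside lay chromosome 12 at 29320320 to 29320950 and 29320607 to 29320921 (49.9%), chromosome 2 at 120434715 to 120435462 and 120434965 to 120435337 (49.9%), and chromosome 2 at 174152505 to 174153054 and 174152781 to 174153212 (49.8%). In all, 264 overlapping pairs fell below the limit. In 146 of these (55.3%, 49.1 to 61.4) the narrower peak was under 50% of the wider in width, so no placement could have met the rule. The others had compatible widths and were set apart too far.

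Spacing among the matched sites is given without a background. Whether they lay closer together or farther apart than equally many randomly placed sites was not tested. The 777 gaps between neighbouring sites on the same chromosome had a median of 1268 kb, with quartiles of 358 and 3867 kb. Another matched site lay within 10 kb of 22 sites (2.76%, 1.74 to 4.15), which formed 11 pairs, within 100 kb of 129 sites (16.2%, 13.7 to 18.9) and within 1 Mb of 524 sites (65.7%). The longest gap was on X, from 23270550 to 68808862, which is 45.5 Mb. It held 52 Rb+/+ and 28 RbΔL/ΔL peaks that were not matched. The longest gaps on the other chromosomes ran from 11.5 to 24.9 Mb. Of all megabases, 577 held at least 1 matched site, and 426 of these held a single one.

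The closest neighbours nearly touched. On chromosome 5, matched sites at 90794931 to 90795438 and 90795527 to 90795988 in Rb+/+ had RbΔL/ΔL partners at 90794875 to 90795561 and 90795580 to 90795926. The first RbΔL/ΔL peak there reached 35 bp into the second Rb+/+ peak. On chromosome 1, sites at 152239753 to 152240303 and 152240309 to 152240747 in Rb+/+, with partners at 152239712 to 152240247 and 152240323 to 152240635, were 5 bp apart. A further pair on chromosome 1, at 193398799 to 193399242 and 193399298 to 193399812 with partners at 193398816 to 193399171 and 193399350 to 193399812, was 55 bp apart. Both libraries thus listed 2 separate peaks at each of these places. The scores at the 152 Mb pair were between 267.62 and 430.55, and those at the chromosome 5 pair were mostly low, 64.07 to 140.32.

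The fullest megabases held 5 matched sites each. There were 5 of them, at 134 to 135 Mb of chromosome 7, 73 to 74 Mb of chromosome 8, 69 to 70 Mb of chromosome 11, and 76 to 77 and 98 to 99 Mb of chromosome 15. The chromosome 7 megabase held 19 Rb+/+ and 13 RbΔL/ΔL peaks in all, the chromosome 8 megabase 12 and 15, and the chromosome 11 megabase 21 and 14. On chromosome 15 there were 12 and 12 peaks at 76 to 77 Mb, and 10 and 11 at 98 to 99 Mb. In each list the 5 matched sites were thus a larger share of these megabases than the 9.74% and 12.4% found over all chromosomes, as the choice of the fullest megabases favours.

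Most matched sites had other peaks in their surroundings. A further peak of either list lay within 10 kb of 219 sites (27.5%, 24.4 to 30.7) and within 100 kb of 680 (85.3%, 82.7 to 87.7). Only 1 site had none within 1 Mb. This site, on chromosome 9, had a Rb+/+ peak at 18096442 to 18096915 (score 53.25) and a RbΔL/ΔL peak at 18096275 to 18096913 (score 126.65), with the nearest other peak 1019 kb away. Next in isolation were X at 23269946 to 23270550 (939 kb) and chromosome 9 at 19426156 to 19426855 (915 kb), the latter with scores of 392.34 and 144.45. The Rb+/+ or RbΔL/ΔL peak of 8 matched sites also overlapped a further peak of the other list.

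Matched sites lay in more peak-rich surroundings than peaks without overlap. In Rb+/+, 71.8% of matched sites (68.5 to 74.9) had another Rb+/+ peak within 100 kb, against 62.9% of the peaks without overlap, a difference of 8.82 points (5.41 to 12.04). In RbΔL/ΔL the shares were 63.5% and 53.6%, a difference of 9.90 points (6.25 to 13.4). Within 10 kb the shares were 18.3% and 16.5% in Rb+/+ (1.82 points, -0.860 to 4.78) and 14.7% and 10.9% in RbΔL/ΔL (3.74 points, 1.30 to 6.49). Against the 256 Rb+/+ and 258 RbΔL/ΔL peaks that overlapped the other list without meeting the rule, the differences within 100 kb were -4.01 points (-9.83 to 2.35) and -3.18 points (-9.62 to 3.62). These surroundings were therefore not shown to be particular to close matching. The nearest peak of the same list lay at a median of 50.6 kb in Rb+/+ (44.5 to 53.8) and 64.1 kb in RbΔL/ΔL (57.1 to 70.01) for matched sites, and at 62.3 and 87.2 kb for peaks without overlap.

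The comparison within 10 kb was repeated by score. Among Rb+/+ peaks with scores below 100, 60 of 246 matched peaks (24.4%) had a neighbour within 10 kb against 16.2% of those without overlap, 8.16 points higher (3.13 to 14.0). At scores of 100 or more, 86 of 551 (15.6%) did against 73 of 332 (21.99%), a difference of -6.38 points (-11.9 to -1.12). In RbΔL/ΔL the matched share was higher below 100, 17.2% against 10.97% (6.19 points, 2.41 to 10.7). At 100 or more it was 12.9% against 10.2%, within counting error (2.74 points, -2.45 to 7.36). In Rb+/+ the difference thus had opposite directions below and above a score of 100, and the difference between these values was not tested. For the other overlapping Rb+/+ peaks the shares were 27.5%, 17.9% and 30% at scores of 50 to 60, 60 to 80 and 80 to 100. Matched Rb+/+ peaks there had 23.0%, 27.2% and 22.5%. In RbΔL/ΔL these shares were 20%, 20.9% and 23.9%, against 20.7%, 17.7% and 14.7% for matched peaks. The higher share below 100 was therefore not shown to be particular to matched sites.

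Peaks of 1 list alone thinned out with distance from the nearest matched site. Rb+/+ peaks without overlap had a density of 25.2 per Mb (18.0 to 34.4) within 1 kb, from 40 peaks, and 6.36 per Mb (5.12 to 7.82) from 1 to 10 kb. From 10 to 100 kb it was 6.24 per Mb (5.82 to 6.68), from 100 kb to 1 Mb 3.68 and beyond 1 Mb 1.99 (1.92 to 2.06). RbΔL/ΔL peaks without overlap had 9.46 per Mb (5.30 to 15.6) within 1 kb, from 15 peaks, and 5.80, 4.25, 2.75 and 1.54 per Mb at the further distances. Both lists thus followed the same order, though the Rb+/+ values from 1 to 10 kb and from 10 to 100 kb were close. Such densities were not computed around other peaks, so the fall was not shown to be particular to matched sites. Distances were taken to the middle of a peak, so the nearest bases, which a neighbouring peak's middle can hardly reach, make the first value an underestimate.

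**Figure D5:**
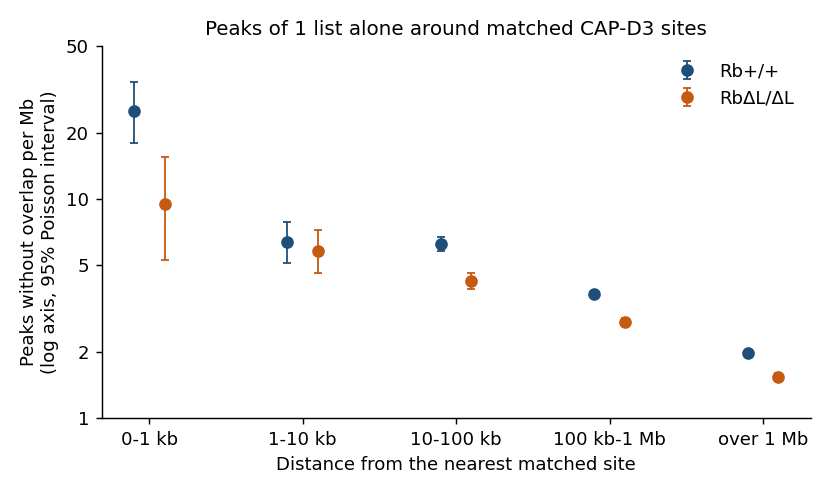
Density of Rb+/+ and RbΔL/ΔL peaks without overlap (y axis, peaks per Mb, log scale, with 95% Poisson intervals) by distance from the nearest matched site (x axis). Densities fall from 25.2 and 9.46 per Mb within 1 kb to 1.99 and 1.54 per Mb beyond 1 Mb.

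The mixture of the lists was similar at most distances. Rb+/+ peaks were 57.0% (56.2 to 57.9) of all peaks without overlap. They were 59.5% (56.8 to 62.1) of those from 10 to 100 kb, 57.2% from 100 kb to 1 Mb and 56.3% beyond 1 Mb. Within 1 kb they were 72.7% (59.0 to 83.9) of 55 peaks, and from 1 to 10 kb 52.3% (44.6 to 59.98). The first of these lay above the overall share and rests on few peaks. Within 10 kb, 66 Rb+/+ peaks lay on the lower and 64 on the higher coordinate side, and 55 and 42 RbΔL/ΔL peaks, with no side beyond counting error.

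Neighbours within 1 kb went with weaker matched sites in Rb+/+. A second Rb+/+ peak lay within 1 kb of 56 sites (7.03%, 5.35 to 9.03), against 4.12% of the Rb+/+ peaks without overlap. The median score of these 56 was 105, against 164 for the other matched sites, and their median width 463.5 bp against 506 bp. In RbΔL/ΔL a second peak lay within 1 kb of 35 sites (4.39%, 3.08 to 6.05), against 2.57% of the peaks without overlap, with median scores of 96.26 and, for the other matched sites, 121. Their median width was 464 bp against 448 bp, so the width difference there had the opposite direction to that in Rb+/+. No intervals were computed for these medians of scores and widths. Peaks that overlapped the other list without meeting the rule had such a neighbour more often than matched sites in RbΔL/ΔL, at 7.75% (matched minus other, -3.36 points, -7.46 to -0.213). In Rb+/+ they had one in 7.81%, within counting error of the matched sites (-0.786 points, -5.04 to 2.57). A close neighbour was therefore not particular to matched sites. At 15 sites both libraries had such a neighbour.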

How the data were processed

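Peaks were listed for 2 ChIP libraries of mouse embryonic fibroblasts. The submitters' processing notes name the build mm9 and the tools MACS 1.4.2 (a peak caller) and Bowtie 1.0 (an aligner). Settings, the control library used by the caller and the handling of duplicate reads, which can change edges and weak peaks, are not stated. The deposited columns are chromosome, start, end, name and a score that the authors' caller gave each peak, with no header saying what it measures. It was used within a list only. Starts are printed 1-based.

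Overlap, widths, edges and distances were computed with pandas 2.3.3, numpy 2.4.6 and scipy 1.17.1 under Python 3.11.15, and drawn with matplotlib 3.10.9. The matching was tested on simulated partners with small fixed edge shifts, all well inside the rule, so pairs near the 50% limit were not tested. Chromosome lengths are those of mm9 in GenomeInfoDb 1.38.1. Peaks in the 3 regions left out (14 Rb+/+ and 15 RbΔL/ΔL) entered only the totals of all listed peaks, the ranks and the alternative with the regions kept. Densities by distance used a grid of 50 bp.

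Sites named are the 5 with the highest score in each list, the 5 with the closest edges, the 3 widest, narrowest, just inside and just outside 50%, closest together and most isolated, and the 3 fullest megabases. The other megabases with equally many sites were added after their values were seen. The sites and comparisons were chosen with earlier results of these data known. Alternatives were a shared length of 30% or 80%, a score of at least 100, the regions kept, and other distances and zones. No read depth, input values, gene annotation or sequence was used.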

Additional observations from a re-analysis of the deposited data

How the results depend on the processing

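Of 53 alternative values for 12 results, 30 stayed within the 95% interval of the reported value (within 1.5 times for the number of sites) and 23 moved. No value changed direction, but most of the results are counts, widths or shares that have no direction to change. A shared length of 80% left 181 sites. Their median Rb+/+ width was 473 bp, 61.9% were wider in Rb+/+, the start differed by 8 bp (-5 to 18) and the end by -6 bp (-20 to 2), so both intervals then included 0. Of these sites 22.1% had another Rb+/+ and 18.8% another RbΔL/ΔL peak within 10 kb, 3.31% another such site within 100 kb and 6.63% lay in the first 5 Mb. The smaller offsets follow from the stricter rule. A shared length of 30% gave median widths of 514 and 430 bp, offsets of 44 and -41 bp, and 21.4% within 100 kb of another site. Scores of at least 100 in both lists left 417 sites, with median widths of 548 and 472 bp and 10.8% within 100 kb of another. By their construction, a distance of 100 kb gave 71.8% and 63.5% of sites with a neighbour in the same list, a distance of 10 kb gave 2.76% with another matched site, and zones of 10 Mb held 9.66% (distal) and 6.78% (centromeric) of the sites. Keeping the 3 regions changed no value beyond its interval. No paired analysis was possible because only 1 library represents either genotype, which also prevents leaving any out. The unknown read depth limits what the absence of a partner shows.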
